A study of Mus musculus with 6 samples.

Results

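A set of 8 genes of the fibroblast growth factor (FGF) system was followed in 3T3-L1 adipocytes infected with a control or an *Lmo3* adenovirus: the ligands *Fgf21*, *Fgf1*, *Fgf2*, *Fgf7* and *Fgf10*, the co-receptor *Klb* and the receptors *Fgfr1* and *Fgfr2*. These 8 of 24421 gene symbols were picked by name, as *Fgf21*, what it binds and the FGFs of adipose tissue, but they were chosen with the difference between the viruses in these libraries already known. Their fold changes and adjusted p-values are therefore given as a description and are not independent evidence. All 8 were found, and all 8 had enough counts to be tested.

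3T3-L1 is a mouse fibroblast line that turns into adipocytes in culture. The labels give its strain as C57BL/6, which was not checked here. All cells were differentiated with insulin (870 nM), TZD (5 µM), Dex (1 µM) and IBMX (500 µM), of which insulin and TZD stayed in the medium after day 3. On day 7 they received 100 pfu/cell of a virus carrying *LacZ* (AdLacZ, the control) or a codon-optimized *Lmo3* (Ad*Lmo3*), and RNA was taken 3 days later. Each group had 3 libraries, so that both groups share the line, the drugs and a viral infection, and no uninfected cells were analysed here.

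Most FGFs are secreted proteins that signal through receptor tyrosine kinases, mostly by way of RAS and the ERK kinases. The classical members need heparan sulfate as a partner at the cell surface. FGF21 belongs to the endocrine members, which bind heparan sulfate weakly and need a klotho protein instead: β-Klotho, encoded by *Klb*, pairs mainly with FGFR1 to form its receptor in adipocytes. *Fgf21* is best known as a gene that the liver switches on in fasting and that many tissues switch on under stress through the transcription factor ATF4, and in fat it is also a target of PPARγ, the receptor that TZDs activate.

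The libraries held 28035639 to 38332335 counts on genes, and 3 counts, taken as the smallest detectable number, came to 0.0783 to 0.107 CPM (the counts of a gene scaled to an equal library total). *Lmo3* itself had 0 counts in all 6 libraries, and since the viral copy is codon-optimized the labels could not be checked through it. The cultures carried adipocyte RNA: the summed level of 10 adipocyte markers was 12318 to 12746 CPM in AdLacZ against 18474 to 22689 CPM in Ad*Lmo3*, and 8 of the 10 rose, or 2 without AdLacZ replicate 3. The summed level of 10 preadipocyte and fibroblast markers was 16298 to 21181 CPM against 15997 to 24276 CPM, with overlapping ranges, and edgeR, DESeq2 and limma voom called 0 of the 9 tested (0 at an unadjusted edgeR p under 0.05). Of 6 macrophage and 5 endothelial markers, 3 and 2 could be tested and the same tools called 0 (0 and 1 at an unadjusted edgeR p under 0.05), with summed levels of 3.18 to 5.86 CPM and 1.07 to 2.38 CPM. The macrophage genes *Adgre1*, *Itgam* and *Ptprc* had at most 3 counts in every library.

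The proximal promoter of *Fgf21* is shown because the gene is the one member that fell and because its known regulators bind there. RefSeq windows on GRCm38.p6, from 250 bases before to 50 after each gene's start, were found for 6 of the 8 genes. The 250 bases before the *Fgf21* start, at chr7:45615491-45615740 on the minus strand, read 5′ to 3′ as follows, with 3 motifs in capitals.
*Fgf21* promoter: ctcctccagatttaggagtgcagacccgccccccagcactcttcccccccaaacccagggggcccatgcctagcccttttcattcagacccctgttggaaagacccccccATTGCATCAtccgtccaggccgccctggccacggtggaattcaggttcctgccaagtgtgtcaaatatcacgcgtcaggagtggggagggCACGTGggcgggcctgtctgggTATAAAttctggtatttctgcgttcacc
The first stretch of capitals, 140 bases before the start, matches TGATGNAAN on the opposite strand, the composite element at which ATF4 pairs with a C/EBP protein. The next, 50 bases before the start, is the E-box CACGTG, and the last, 28 bases before it, is the TATA box letters TATAAA. On either strand, TGATGNAAN was found in 3.95% of 32851 promoter windows, CACGTG in 7.15% and TATAAA in 13.6%. Among the 6 genes with a window, TGATGNAAN and TATAAA occurred in that of *Fgf21* and CACGTG in those of *Fgf21* and *Fgfr2*. The GC box letters GGGCGG were found in 35.7% of windows and in those of *Fgf21*, *Fgf2* and *Fgf10*, and 1 copy in *Fgf21* shares its first base with the end of the E-box. A match in letters is a description of the window and not a bound site.

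Of the 8 genes, 3 were called differentially expressed (edgeR's quasi-likelihood test, adjusted p under 0.05 by the Benjamini-Hochberg method over all tested genes), and 4.28% of the 12766 tested genes were. In Ad*Lmo3* 2 were called higher (2.71% of all tested genes) and 1 lower (1.57%). The groups did not overlap for 5, namely *Fgf21*, *Klb*, *Fgfr1*, *Fgfr2* and *Fgf1*, against 26.5% of all tested genes. Nothing is read from these counts, since the genes were picked with the contrast known. The median log2 fold change was 0.28 over the 8 genes and 0.00 over all tested genes. Of all tested genes 50.4% were higher in Ad*Lmo3*. The shares of all tested genes given here are also the background for the gene lists. Those lists were likewise chosen with earlier results of these data known, so their counts are a description only. Without AdLacZ replicate 3 edgeR called 0 of the 8, with 4 at an unadjusted p under 0.05 (*Fgf21*, *Klb*, *Fgfr1* and *Fgfr2*).

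*Fgf21* fell 4.43-fold in Ad*Lmo3*. It lies at chr7:45613886-45615490 on the minus strand of GRCm38. Its counts were 62, 60 and 52 in AdLacZ replicates 1, 2 and 3, against 16, 8 and 12 in the Ad*Lmo3* libraries. In CPM these were 1.74, 1.54 and 1.53 against 0.432, 0.217 and 0.444. The lowest control library was more than 3 times the highest Ad*Lmo3* library, and every library was above the limit of 3 counts. The means of 1.60 ± 0.120 and 0.364 ± 0.128 CPM (SD, n = 3 each) differed by -2.15 on the log2 scale (SE 0.300, 95% interval -2.84 to -1.46, edgeR adjusted p = 0.0102). The whole difference rests on 174 counts in one group and 36 in the other. Without AdLacZ replicate 3 the log2 fold change was -2.18 and the adjusted p 0.0558, and with the normal prior of DESeq2, which shrinks the changes of genes with few counts, it was -0.89 with an adjusted p of 1.24e-05. In RNA of a whole culture, fewer cells making a transcript and less of it per cell cannot be told apart.

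**Figure D1:**
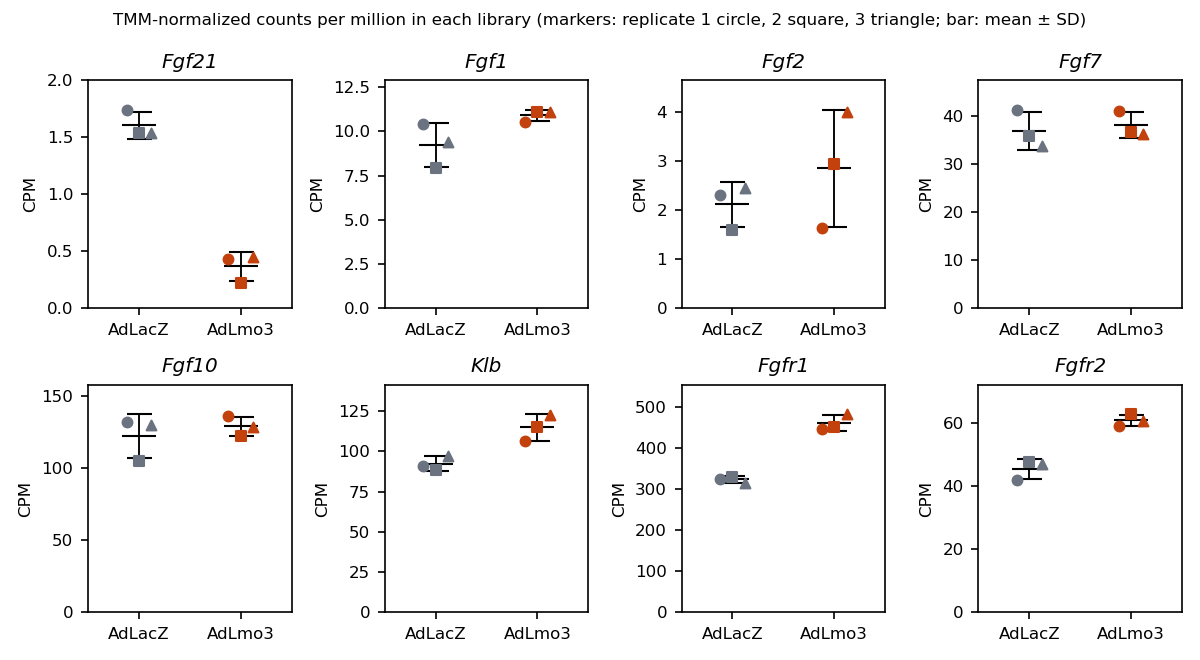
TMM-normalized CPM of the 8 genes in each library, 1 panel per gene with its own axis from 0; circles, squares and triangles are replicates 1, 2 and 3, and the bars give the mean ± SD of 3. The *Fgf21* libraries of Ad*Lmo3* sit at 0.217 to 0.444 CPM, below the control libraries at 1.53 to 1.74, while those of *Fgf7*, *Fgf10* and *Fgf2* overlap.

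Both receptors rose, and the co-receptor was higher in every Ad*Lmo3* library without passing the test. *Fgfr1*, the main FGF receptor of adipocytes, lies at chr8:25513654-25575718 on the plus strand. It was measured at 326, 331 and 315 CPM in AdLacZ against 447, 453 and 483 CPM in Ad*Lmo3*. The groups did not overlap, with an SD of 2.56% and 4.20% of the mean. The means of 324 ± 8.29 and 461 ± 19.3 CPM gave a log2 fold change of 0.51 (SE 0.0664, 95% interval 0.36 to 0.66, edgeR adjusted p = 0.00780). *Fgfr2*, whose splice forms serve different FGF ligands in epithelial and mesenchymal cells, was at 41.9, 47.8 and 47.2 CPM in AdLacZ against 59.3, 62.9 and 60.7 CPM in Ad*Lmo3*, again without overlap. Its log2 fold change was 0.42 (SE 0.0696, 95% interval 0.26 to 0.58, edgeR adjusted p = 0.0178). Counts per gene do not separate its splice forms. The exons of *Fgfr2* overlap those of *Ctbp2* on the same strand by 314 bp, and 2.19% of its 75-base stretches also occur there. For *Fgfr1*, 0.867% also occur in *Gm16159*, which overlaps it on the opposite strand.

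*Klb*, the β-Klotho gene at chr5:65348314-65384007, was at 91.1, 88.3 and 97.4 CPM in AdLacZ against 107, 115 and 123 CPM in Ad*Lmo3*. The groups did not overlap, but the log2 fold change of 0.32 (SE 0.0748, 95% interval 0.14 to 0.49) had an edgeR adjusted p of 0.0578. DESeq2 gave 0.32 with an adjusted p of 0.00707, and edgeR without Ad*Lmo3* replicate 1 gave 0.37 with 0.0416, so that its call depends on the tool and on 1 library. The receptor calls were also lost in some fits without 1 library, while the log2 fold changes moved little. Without AdLacZ replicate 3 the edgeR adjusted p was 0.0601 for *Fgfr1* (log2 fold change 0.49) and 0.0749 for *Fgfr2* (0.44). Without Ad*Lmo3* replicate 2 it was 0.0872 for *Fgfr2* (0.40). The genes called in the whole table went from 547 to 77 without AdLacZ replicate 3 and to 152 without Ad*Lmo3* replicate 2. The adipocyte markers moved in the same direction as these 3 genes, at a median of 0.60 on the log2 scale over the 10, and their part in the receptor values was not tested.

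The other ligands did not pass the test. *Fgf10*, a mesenchymal FGF needed for fat pad development, was at 132, 105 and 130 CPM in AdLacZ against 136, 122 and 129 CPM in Ad*Lmo3*. The groups overlapped, with a log2 fold change of 0.08 (95% interval -0.15 to 0.30, edgeR adjusted p = 0.709). *Fgf7*, the keratinocyte growth factor, was at 41.3, 35.8 and 33.7 CPM against 41.2, 36.8 and 36.2 CPM, with replicate 1 the highest of both groups. Its log2 fold change was 0.04 (95% interval -0.17 to 0.26, edgeR adjusted p = 0.846). The sign of these small values depends on single libraries, as *Fgf7* came to -0.02 without AdLacZ replicate 3 and -0.01 without Ad*Lmo3* replicate 1, and *Fgf10* to -0.02 without AdLacZ replicate 2. The intervals leave room for a change of up to 0.30 and 0.26 on the log2 scale and do not show that the levels are equal.

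*Fgf1*, an FGF without a secretion signal that adipocytes make in response to PPARγ and high-fat feeding, was at 10.4, 7.91 and 9.38 CPM in AdLacZ against 10.5, 11.1 and 11.1 CPM in Ad*Lmo3*. The groups just missed overlapping, between AdLacZ replicate 1 and Ad*Lmo3* replicate 1, and the log2 fold change was 0.24 (SE 0.121, 95% interval -0.04 to 0.52, edgeR adjusted p = 0.313). Without AdLacZ replicate 2, the lowest library, it was 0.14 with an adjusted p of 0.507. *Fgf2*, a growth factor of preadipocytes, had 82, 62 and 83 counts in AdLacZ and 60, 108 and 108 in Ad*Lmo3*. Ad*Lmo3* replicate 1 lay among the controls at 1.62 CPM while replicate 3 reached 3.997 CPM, and the log2 fold change of 0.42 had a 95% interval of -0.34 to 1.18 (edgeR adjusted p = 0.536). Without Ad*Lmo3* replicate 1 it was 0.71, with an adjusted p of 0.180, and without replicate 3 it was 0.11. At this level, 9.93% of the 75-base stretches in the *Fgf2* exons also occur in *Gm43439* or in *Nudt6*, which overlaps it on the opposite strand, and the strand setting of the counting is not given in the sources used here.

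**Figure D2:**
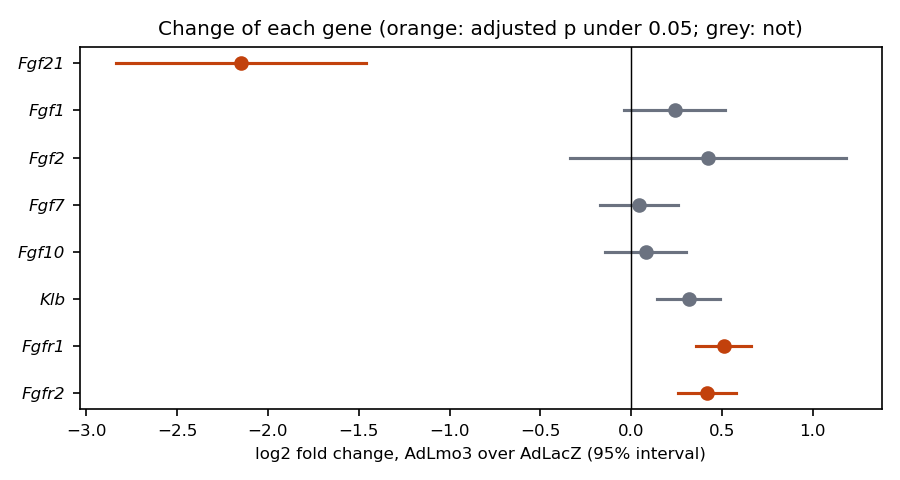
Log2 fold change of each gene in Ad*Lmo3* over AdLacZ, with its 95% interval; orange marks an adjusted p under 0.05. *Fgf21* stands at -2.15, *Fgfr1* at 0.51 and *Fgfr2* at 0.42, and the intervals of *Fgf1*, *Fgf2*, *Fgf7* and *Fgf10* include 0.

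The levels of the genes can be set beside each other only per length, here in CPM per kb of merged exons. In AdLacZ the order was *Fgfr1* (32.8), *Fgf10* (26.5), *Klb* (20.3), *Fgf7* (11.4), *Fgfr2* (4.42), *Fgf1* (1.69), *Fgf21* (1.69) and *Fgf2* (0.312). Of the neighbours in this order, *Fgf1* and *Fgf21* had overlapping library ranges and the other pairs did not. In Ad*Lmo3* the levels were 46.7 for *Fgfr1*, 28.03 for *Fgf10*, 25.3 for *Klb*, 11.7 for *Fgf7*, 5.91 for *Fgfr2*, 2.00 for *Fgf1*, 0.383 for *Fgf21* and 0.420 for *Fgf2*. There *Fgf10* overlapped *Klb*, and *Fgf21* overlapped *Fgf2* at the bottom of the order. Per length, the transcripts of *Fgfr1* and *Klb* were thus present at over 10 times the level of *Fgf21* in both groups.

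The choice of length moves the receptors most, since both have many transcripts. With the longest coding transcript in place of merged exons, a choice made after seeing the data, *Fgfr1* in AdLacZ stood at 64.3 and *Fgfr2* at 10.6 CPM per kb. The order in AdLacZ was the same, with *Fgf10* then overlapping *Klb*. In Ad*Lmo3* the mean of *Klb* (32.5) then stood above that of *Fgf10* (31.3) and *Fgf7* (14.2) lay beside *Fgfr2* (14.1), and the libraries of both pairs overlapped. On merged exons, *Fgfr1* made up 87.4% ± 0.967 of the summed level of the 4 FGF receptor kinases in AdLacZ and 88.1% ± 0.505 in Ad*Lmo3* (SD, n = 3 each). *Fgfr3* was at 0.321 and 0.394 CPM per kb, and *Fgfr4* had at most 3 counts in every library. The level of *Fgfr1* relative to *Klb* was 1.62 ± 0.121 in AdLacZ and 1.85 ± 0.0707 in Ad*Lmo3*, with ranges of 1.49 to 1.73 and 1.81 to 1.93. By the longest coding transcript this ratio was 2.47 ± 0.185 and 2.82 ± 0.108. *Fgf10* made up 63.7% ± 2.74 of the summed level of the 5 ligands in AdLacZ and 65.9% ± 0.373 in Ad*Lmo3*.

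**Figure D3:**
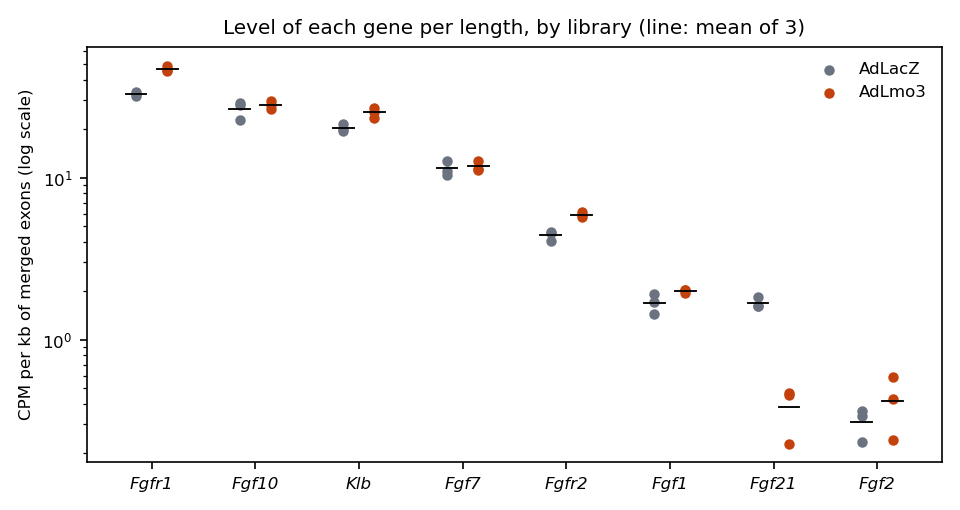
Level of each gene per length in CPM per kb of merged exons on a log axis, with 1 point per library and a line at the mean of 3. *Fgfr1*, *Fgf10* and *Klb* lie above 19 in every library, and *Fgf21* drops from 1.69 in AdLacZ to 0.383 in Ad*Lmo3*, where it overlaps *Fgf2*.

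The rest of the FGF family was nearly silent in these cells. Of 17 other genes of the FGF family, 13 had at most 3 counts in every library. Among them was *Fgf15*, the intestinal FGF that shares the klotho receptors. Of the 17, 1 was tested, *Fgf11*, at 0.245 and 0.322 CPM (log2 fold change 0.36, edgeR adjusted p = 0.692). EdgeR, DESeq2 and limma voom called 0 genes of this list, and 0 had an unadjusted p under 0.05. *Kl*, the klotho that serves FGF23, had at most 3 counts in every library. *Fgfrl1*, a receptor that lacks the kinase domain, was the highest of the 8 other receptors, klothos and FGF binding proteins, at 224 ± 5.99 CPM in AdLacZ against 280 ± 21.2 CPM in Ad*Lmo3*. Its log2 fold change was 0.32 (edgeR adjusted p = 0.0549). Of the 5 tested genes of this list edgeR called 0, with 1 at an unadjusted p under 0.05, while DESeq2 and limma voom called 1 each.

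Downstream of the receptors, the transcripts of the signalling chain were close to balanced. Of 22 signal transducers, all tested, 12 were higher and 10 lower, with a median of 0.01 on the log2 scale. EdgeR called 1 of them, as higher, and 0 to 1 when 1 library was left out. *Ptpn11*, the phosphatase SHP2 and the highest of the list, had a log2 fold change of 0.03. Of 10 tested feedback inhibitors, which FGF and ERK signalling induce and which dampen it, 2 rose. *Spry4*, an inhibitor of RAS to ERK signalling, was at 40.8, 39.05 and 40.8 CPM in the control libraries and 71.8, 54.7 and 73.6 CPM with Ad*Lmo3* (log2 fold change 0.73, edgeR adjusted p = 0.0129). *Dusp4*, a phosphatase of ERK in the nucleus, was at 28.01, 35.6 and 27.9 CPM against 58.6, 41.6 and 46.1 CPM (log2 fold change 0.68, edgeR adjusted p = 0.0417). Neither gene overlapped between the groups. The highest of that list, *Spred1*, had a log2 fold change of 0.15, and the list's median was 0.19.

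These calls were sensitive to single libraries. *Spry4* was lost without AdLacZ replicate 2 or 3 and kept in the other 4 fits that leave out 1 library, with an adjusted p of 0.0711 at most. *Dusp4* was kept in 0 of the 6, with adjusted p-values of 0.0504 to 0.171. Of 15 ERK-responsive genes, 14 were higher in Ad*Lmo3*, against 50.4% of all tested genes, and their median log2 fold change was 0.43. The groups overlapped for all but 1 of the 15, whereas 26.5% of all tested genes did not overlap. EdgeR called 0 of them, with 4 at an unadjusted p under 0.05. DESeq2 and limma voom called 0 as well, and edgeR called 1 without AdLacZ replicate 1 or Ad*Lmo3* replicate 2. *Ccnd1*, the cyclin D1 gene and the highest of the list, had a log2 fold change of 0.42 (edgeR adjusted p = 0.232).

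Heparan sulfate, the partner of the classical FGFs, is carried by proteoglycans and modified by enzymes, and the genes of both form a further list. Of 23 such genes 19 were tested, 14 were higher, where 50.4% of all tested genes were, and 2 rose. The median log2 fold change was 0.09. *Extl3*, a glycosyltransferase that starts the heparan sulfate chain, was at 212 ± 7.14 and 277 ± 22.2 CPM (log2 fold change 0.39, edgeR adjusted p = 0.0325). *Hs6st1*, a heparan sulfate sulfotransferase, was at 107 ± 6.21 and 136 ± 7.70 CPM (log2 fold change 0.34, edgeR adjusted p = 0.0417). The highest of the list, *Hspg2*, which encodes perlecan, had a log2 fold change of 0.40 (edgeR adjusted p = 0.0733). Of the 6 fits that leave out 1 library, *Extl3* passed in 1, without Ad*Lmo3* replicate 1, and *Hs6st1* in 0, while DESeq2 called 4 genes of the list.

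Genes of the ATF4-type stress response, to which *Fgf21* is also known to belong, were mostly lower with Ad*Lmo3*. All 20 were tested, and 16 were lower and 4 higher (*Slc7a11*, *Ddit4*, *Cebpb* and *Phgdh*), where 50.4% of all tested genes were higher. Of the 20, 6 fell and 0 rose, against 1.57% and 2.71% of all tested genes, and the median log2 fold change was -0.37. This list was chosen with earlier results of these data known, so these shares are a description and not independent evidence. *Trib3*, a pseudokinase induced by ATF4 and CHOP, was at 298, 318 and 344 CPM in AdLacZ against 175, 198 and 137 CPM in Ad*Lmo3* (log2 fold change -0.91, edgeR adjusted p = 0.0111). *Ddit3*, which encodes CHOP itself, was at 226, 297 and 265 CPM against 180, 156 and 105 CPM (-0.84, edgeR adjusted p = 0.0471). *Nupr1*, a stress-induced chromatin protein, was at 161, 159 and 183 CPM against 88.1, 103 and 97.5 CPM (-0.80, edgeR adjusted p = 0.00351). None of these 3 genes overlapped between the groups, nor did *Chac1*, a glutathione-degrading enzyme, at 59.8 ± 9.23 and 40.5 ± 1.65 CPM (-0.56, edgeR adjusted p = 0.0308). The remaining 2, *Slc3a2* and *Slc7a5*, named after their values were seen, form an amino acid transporter.

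The highest gene of the list, *Atf5*, had a log2 fold change of -0.38 (edgeR adjusted p = 0.0980). *Atf4*, *Gdf15* and *Asns* are also named after their values were seen. *Atf4* and *Gdf15* had log2 fold changes of -0.34 (edgeR adjusted p = 0.140) and -1.38 (0.0975), and *Asns*, an ATF4 target of the amino acid response, was at -0.05 (0.771). *Gdf15*, a stress hormone like FGF21, had only 142, 309 and 179 counts against 133, 62 and 33. Of the 6 called genes, *Nupr1* passed in all 6 fits that leave out 1 library and *Trib3* in 5, lost without AdLacZ replicate 3 at an adjusted p of 0.0671. *Ddit3* and *Slc7a5* passed in 2 each, without Ad*Lmo3* replicate 1 or 3, *Slc3a2* in 1, without Ad*Lmo3* replicate 1, and *Chac1* in 1, without AdLacZ replicate 1. DESeq2 called 12 genes of the list on all 6 libraries, and edgeR called 1 without AdLacZ replicate 3.

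The element of the *Fgf21* promoter was looked for in the same genes. Of the 19 with a window, 7 held TGATGNAAN on either strand, namely *Asns*, *Atf3*, *Chac1*, *Nupr1*, *Slc7a11*, *Trib3* and *Vldlr*, against 3.95% of all windows. The 7 counts genes and the 3.95% counts windows. The list was made of genes known to belong to the ATF4-type response, so nothing is read from this share. The matches of *Fgf21* and of the called genes *Nupr1*, *Chac1* and *Trib3* are shown with 10 bases on each side, written so that the element reads forward and stands in capitals.
*Fgf21*, chr7:45615612-45615640: cctggacggaTGATGCAATgggggggtct
*Nupr1*, chr7:126625563-126625591: aagccctgtcTGATGCAATctggcccttt
*Chac1*, chr2:119351038-119351066: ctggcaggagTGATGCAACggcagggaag
*Trib3*, chr2:152344029-152344057: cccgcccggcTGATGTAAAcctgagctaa
The window of *Chac1* is read from the minus strand of GRCm38.p6 and the other 3 from the plus strand. *Fgf21* and *Nupr1* share the same 9 letters, at 140 and 111 bases before the start, whereas that of *Chac1* lies 194 bases before the start and that of *Trib3* 13 bases after it. *Ddit3*, *Slc3a2* and *Slc7a5*, which also fell, are not among the 7. Of those that are, *Asns* had a log2 fold change of -0.05, *Vldlr* of -0.13, *Atf3* of -0.53 and *Slc7a11* of 0.64. None of these passed the test (edgeR adjusted p of 0.771, 0.450, 0.477 and 0.291). A link between the element and the changes was not tested.

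Other known regulators of the *Fgf21* gene were mostly higher. Of 12 such genes 10 were tested, and the median log2 fold change was 0.23. Of the 10, 7 were higher and 2 rose, against 50.4% and 2.71% of all tested genes. The groups did not overlap for 3, against 26.5%. The adipocyte markers had a median of 0.60, and their part in these values was not tested. *Pparg*, the adipocyte master regulator and target of TZD, was at 377, 367 and 422 CPM in AdLacZ against 493, 534 and 604 CPM in Ad*Lmo3* (log2 fold change 0.48, edgeR adjusted p = 0.0316). *Nr1h3*, which encodes the oxysterol receptor LXRα, was at 104, 88.6 and 100.2 CPM against 125, 121 and 136 CPM (0.38, edgeR adjusted p = 0.0406). *Pparg* passed in 1 of the 6 fits that leave out 1 library, without Ad*Lmo3* replicate 1, and *Nr1h3* in 0.

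Among 6 genes reported to respond to FGF21 in adipocytes, 4 were tested and 1 rose. This was *Adipoq*, the adiponectin gene, at 1871, 1706 and 1836 CPM in AdLacZ against 3030, 3830 and 4382 CPM in Ad*Lmo3* (log2 fold change 1.05, edgeR adjusted p = 0.00724), which was lost without AdLacZ replicate 3 at an adjusted p of 0.0554. It is also 1 of the 10 adipocyte markers. *Slc2a1*, the glucose transporter GLUT1 and a textbook FGF21 target in 3T3-L1 cells, was named after its values were seen. It ranged from 95.7 to 299.7 CPM in AdLacZ against from 136 to 193 CPM in Ad*Lmo3*, a spread within the controls that covers all Ad*Lmo3* libraries (log2 fold change -0.19, edgeR adjusted p = 0.816). *Ucp1*, the uncoupling protein of brown fat, had at most 3 counts in every library.

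**Figure D4:**
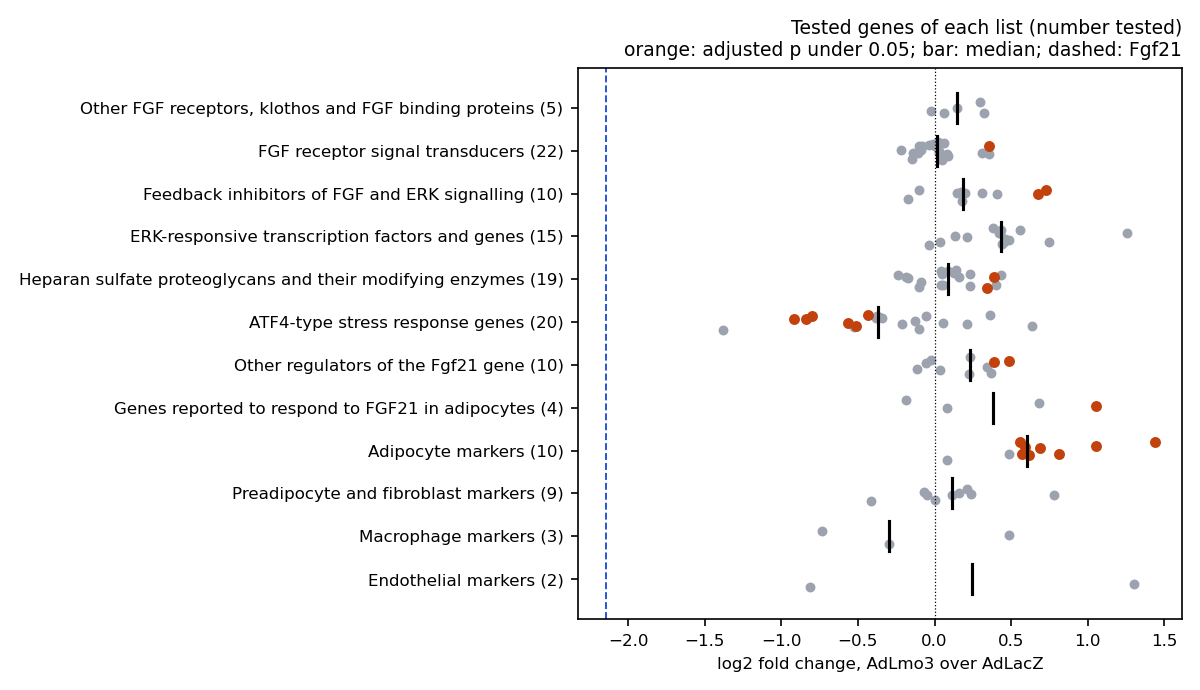
Log2 fold change in Ad*Lmo3* over AdLacZ of each tested gene in the lists, with the number tested in brackets; orange points have an adjusted p under 0.05, bars are medians and the dashed line marks *Fgf21* at -2.15. The ATF4-type genes have a median of -0.37 and the adipocyte markers one of 0.60.

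Across the 6 libraries, the tested genes whose log2 CPM ran most alike to *Fgf21* were *Caap1*, *Dcbld2*, *Amdhd2*, *Cdc5l* and *Zfp644*, with Pearson's r of 0.997 down to 0.993. For *Fgfr1* they included *2310008N11Rik*, *Gm6484*, *Slc19a1* and *Inca1*, with r of 0.998 down to 0.996. These values describe 6 points in 2 separate groups, and 421 and 642 tested genes had an r above 0.9 with *Fgf21* and *Fgfr1*. The genes alike to *Fgf21* differed by -0.31 to -0.12 on the log2 scale, and none was called. *Gm6484*, *Slc19a1* and *Inca1* had log2 fold changes of 1.54, 0.72 and 0.65, and *2310008N11Rik* had at most 3 counts in every AdLacZ library.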

How the data were processed

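RNA-Seq was done on 3 AdLacZ and 3 Ad*Lmo3* libraries of 3T3-L1 adipocytes (single reads of 75 bp), grouped and numbered by the sample labels. The authors deposited raw counts of reads per gene symbol, 1 table per library, without normalization. The submitters' processing notes name STAR 2.5.0b, mm10 and DESeq2 1.6.3. The counting program, its strand setting and the annotation are not given in the sources used here. The lines for reads on no gene (7.15% to 8.94% of all reads listed) or on several (0.476% to 0.543%) were left out.

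The main test was edgeR's (version 4.0.16, R 4.3.3) quasi-likelihood test, after filterByExpr and TMM scaling and with no block, with Benjamini-Hochberg adjustment over 12766 genes at a threshold of 0.05. CPM are TMM-normalized. Detection limits of 3 counts cover counting error only. The labels number the replicates without saying whether they came from separate cultures, so p-values measure only the spread between these libraries, which may be technical. Replicates of a group differed beyond sampling noise (chi-square per degree of freedom 24.1 to 64.0). The steps were tested on simulated data. Positions and lengths came from the GRCm38 GENCODE annotation and promoters from RefSeq.

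The genes and lists were chosen with earlier results of these data known. Named were the 8 genes, in each list the called genes (4 per direction at most, by size) and the highest gene, and the 5 genes most alike to *Fgf21* and *Fgfr1*. Further genes of these lists were named after their values were seen. Some genes that this rule names are not reported here. Alternatives were limma 3.58.1 voom, DESeq2 1.42.0 (also with its normal prior), RLE scaling, no count filter or 1 CPM in 3 libraries, the replicate block, and leaving out each library.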

Additional observations from a re-analysis of the deposited data

How the results depend on the processing

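*Fgf21*, *Fgfr1* and *Fgfr2* passed under all 7 other tools, scalings, filters and the block. Leaving out 1 library, the log2 fold changes ranged from -2.31 to -1.86 for *Fgf21*, 0.47 to 0.54 for *Fgfr1*, 0.36 to 0.45 for *Fgfr2*, 0.27 to 0.37 for *Klb*, 0.14 to 0.34 for *Fgf1*, 0.11 to 0.71 for *Fgf2*, -0.0194 to 0.13 for *Fgf7* and -0.0207 to 0.14 for *Fgf10*, and 0 to 4 of the 8 genes were called. The number of called genes in the whole table was 547, with 77 (without AdLacZ replicate 3) to 501 when 1 library was left out, 1106 with DESeq2 and 1104 with its normal prior. The genes called in the pathway lists numbered 14, with 1 (without AdLacZ replicate 3) to 14 when 1 library was left out and 24 with DESeq2, with or without the prior. For the ATF4-type list these were 6, 1 to 8 and 12 with both forms of DESeq2. *Klb* passed with DESeq2 at 0.32 and with the prior at 0.30. The cause of these differences was not tested.

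Same-numbered libraries correlated by 0.03, 0.18 and 0.18 in their deviations from the group means, and 4 of 6 correlated best with their own number, so the numbers were not taken to pair the libraries. Under the replicate block, 497 genes were called (399 shared with the unblocked fit), 3 of the 8 genes and 9 genes of the pathway lists. Depth limits *Fgf21*, with 36 counts in Ad*Lmo3*. Lengths for the levels per kb change them without changing the fold changes: by the longest coding transcript, in AdLacZ, *Klb* was at 26.1, *Fgf1* at 2.32 and *Fgf7* at 13.8 CPM per kb.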
